A study of Mus musculus with 45 samples.

Results

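The 10 genes described here are the E-cadherin gene Cdh1, the N-cadherin gene Cdh2, the cadherin genes Cdh9 and Cdh11, the transcription factor genes Snai1, Snai2, Zeb1, Zeb2 and Twist1, and Vim, which encodes the intermediate filament vimentin. They were taken by symbol from the 35372 genes listed in the count files, and all 10 were found in all 45 libraries. The libraries are strand-specific RNA-seq of the male, wild-type mouse ESC line E14tg2a during differentiation. ESCs were maintained either in 2iL (N2B27 medium with the Gsk3 inhibitor CHIR99021, the Mek inhibitor PD0325901 and LIF) or in SL (serum and LIF). They were then differentiated in 3 ways, each named a course here. The EB course is suspension culture in serum without LIF, which forms embryoid bodies. The FA course is adherent culture in N2B27 with Fgf2 and ActivinA and is labelled EpiSC. The Neural course is adherent culture in N2B27 alone. All cells come from this 1 line, and each starting medium, course and day has 1 library, at days 0, 1, 1.5, 2, 2.5, 3, 5 and 7. SL at day 0 is a single library shared by the courses, and day 5 of FA from 2iL was not analysed here. In bulk RNA, fewer cells of a type and less RNA per cell cannot be told apart.

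Classical cadherins are transmembrane proteins that join neighbouring cells by binding a cadherin of the same kind, and their cytoplasmic tails are tied to actin by catenins. In the embryo, E-cadherin holds the epiblast together as an epithelium, and it is replaced by N-cadherin where cells form the neural plate or leave the primitive streak, a change called the cadherin switch. Snail, Slug (Snai2), Zeb1, Zeb2 and Twist1 are DNA-binding proteins best known as repressors of Cdh1 in epithelial-mesenchymal transition (EMT), in which cells also gain vimentin, and Zeb2 has a separate known role in neural development.

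Zeb1 and Zeb2 mRNAs are the textbook targets of the miR-200 family of microRNAs, so the letters that tie them together are shown first. Mature sequences are from RefSeq (GRCm38.p6), with the seed, bases 2 to 8, in capitals. The first 3 share a seed, and so do the last 2.
mmu-miR-200b-3p: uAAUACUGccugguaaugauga
mmu-miR-200c-3p: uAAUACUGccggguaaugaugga
mmu-miR-429-3p: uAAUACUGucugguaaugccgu
mmu-miR-200a-3p: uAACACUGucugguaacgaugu
mmu-miR-141-3p: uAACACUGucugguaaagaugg

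The complements of the seeds, CAGTATT for the first group and CAGTGTT for the second, were searched on the sense strand of the 3′ UTR of 1 transcript per gene (GENCODE M21, GRCm38), where they cannot overlap each other. The 3′ UTR of Zeb2 held 9 matches, 5 to the first group and 4 to the second, and that of Zeb1 also held 5 and 4. Snai2 held 2, Cdh11 and Snai1 held 1 each, and those of Cdh1, Cdh2, Cdh9, Twist1 and Vim held none. Of 20245 genes with a 3′ UTR of at least 50 bases, 26.2% held at least 1 match and 64 genes (0.316%) held at least 5. Of the 9 Zeb2 matches, on the negative strand of chromosome 2, 4 are shown as examples of both groups. Capitals mark the match.
Zeb2 chr2:44988170-44988192: actaccatacatCAGTATTttat
Zeb2 chr2:44988105-44988127: actacagtgcatCAGTATTacga
Zeb2 chr2:44987822-44987844: gccatccttgtaCAGTGTTcaga
Zeb2 chr2:44987743-44987765: aagcacccgtgtCAGTATTagac
A match is a description of letters and not a measured site, and the mature microRNAs were not measured in these libraries.

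Library totals ranged from 13093226 to 39804240 counted reads (median 18222720), and the 8 EB libraries from 2iL were the deepest group (median 34490692, other 37 libraries 17297450). Levels are given as CPM, the count scaled to the library total, and 3 counts correspond to between 0.0754 and 0.229 CPM. The ESC identity of day 0 was checked with 6 pluripotency markers, the naive factor genes Nanog, Zfp42, Esrrb, Klf4 and Tfcp2l1 and the general factor gene Pou5f1. Their summed level was 4426 to 4624 CPM in 2iL and 3006 CPM in SL, against 63.7 to 876 CPM at days 5 and 7 of the courses.

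**Figure D1:**
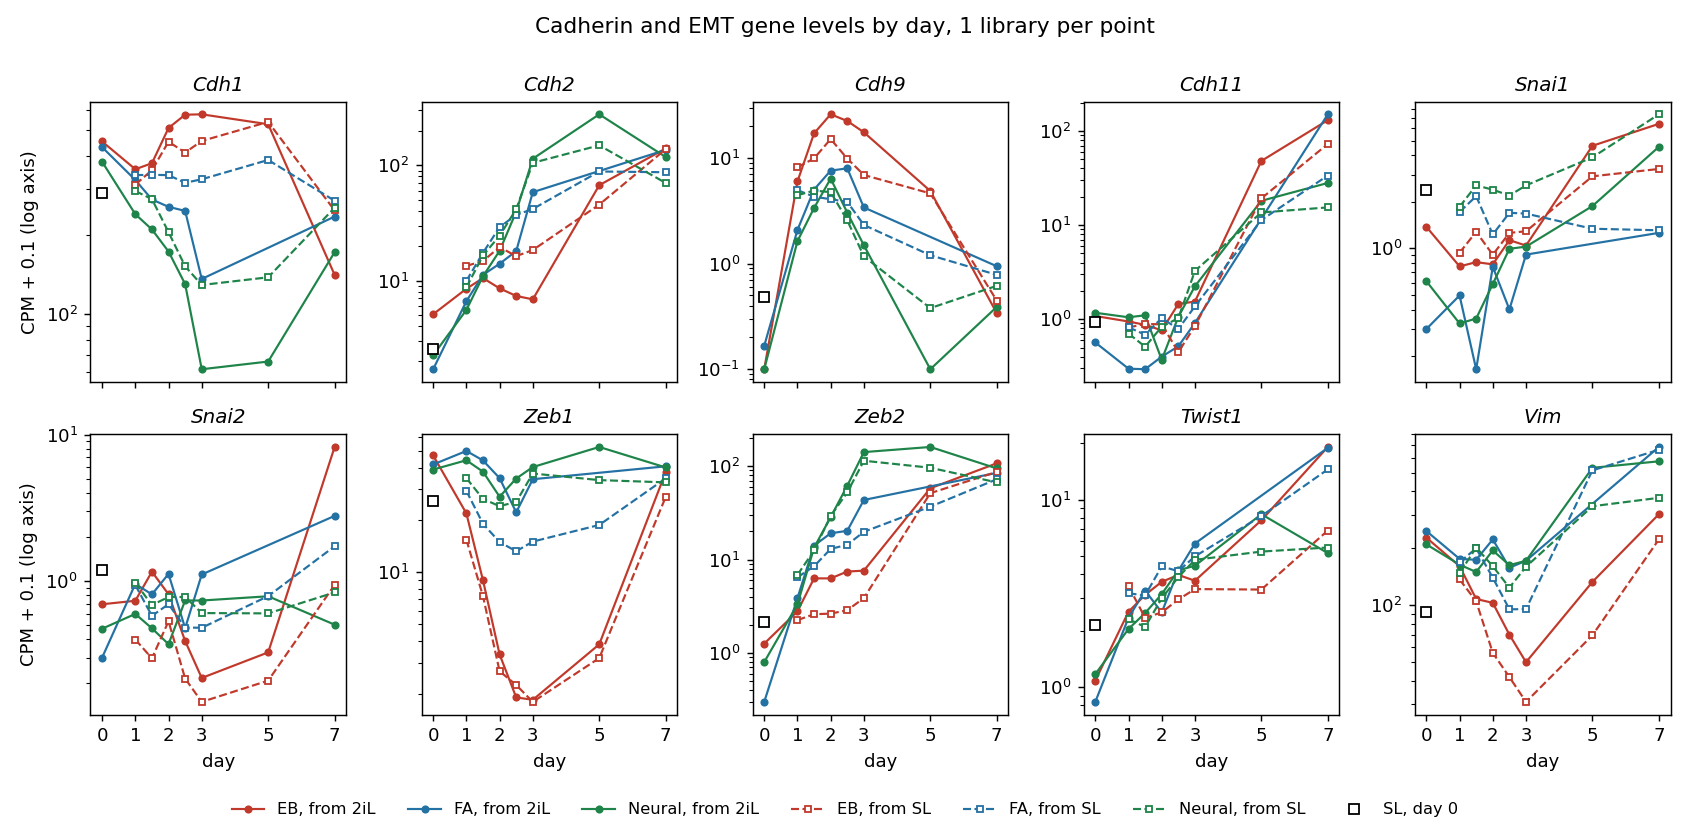
CPM plus 0.1 on a log axis against day for each of the 10 genes, 1 library per point, with EB in red, FA in blue and Neural in green, lines and filled symbols from 2iL, and dashed lines and open symbols from SL. The FA line from 2iL has no point at day 5. Zeb1 drops to between 1.69 and 1.74 CPM at day 3 in EB and in no other course, and Cdh2 and Zeb2 are highest in Neural at that day.

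Cdh1 (chromosome 8, 106603351 to 106670246, positive strand) was kept in EB until day 5 and fell early in Neural, where it had partly returned by day 7. In EB from 2iL it was at 454, 356, 375, 511, 574, 576, 528 and 141 CPM on days 0, 1, 1.5, 2, 2.5, 3, 5 and 7. In Neural from 2iL the same days gave 380, 240, 210, 173, 130, 61.6, 65.9 and 172 CPM. EB was the higher of these 2 at every day from 1 to 5, and Neural at day 7. FA from 2iL lay between them up to day 3, at 432, 324, 273, 256, 247 and 136 CPM, and was the highest of the 3 at day 7, with 235 CPM. From SL, Cdh1 started at 288 CPM. EB from SL then gave 311, 353, 453, 412, 456, 539 and 248 CPM from day 1 to day 7, and Neural from SL gave 294, 274, 205, 152, 129, 138 and 254 CPM. The order of the courses was thus the same from both media at days 2 to 3. FA from SL stayed between 270 and 386 CPM, at 338, 339, 338, 316, 326, 386 and 270 CPM, without the dip of FA from 2iL at day 3.

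Cdh2 (chromosome 18, negative strand) was low in ESCs and rose in every time course, latest in EB. At day 0 in 2iL it was at 5.00 CPM in the library of EB, 1.60 in that of FA and 2.15 in that of Neural, and at 2.47 CPM in SL. Neural from 2iL rose through 5.46, 10.8, 18.0, 39.5 and 114 CPM to 277 CPM at day 5 and was at 118 CPM at day 7. Neural from SL followed with 8.62, 16.4, 24.4, 41.5, 105, 149 and 70.2 CPM. Both Neural time courses therefore peaked at day 5. FA from 2iL gave 6.52, 11.1, 13.9, 17.9 and 58.4 CPM from day 1 to day 3 and 136 CPM at day 7, and FA from SL gave 9.84, 17.3, 29.0, 37.0, 41.7, 88.3 and 87.0 CPM. In EB from 2iL the level stayed at 8.39, 10.4, 8.46, 7.25 and 6.77 CPM from day 1 to day 3 and then rose to 67.1 and 140 CPM on days 5 and 7. EB from SL was likewise flat at 13.3, 14.7, 19.4, 16.2 and 18.3 CPM before 45.5 and 138 CPM. The rise of Cdh2 in EB thus came between days 3 and 7, while in Neural it was under way by day 3.

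The ratio of Cdh2 to Cdh1 reads within a library needs no scaling between libraries. On the log2 scale it was -6.50, -8.05 and -7.45 in the 3 day 0 libraries in 2iL and -6.85 in SL. From day 1 to day 7 it rose in 6 of 6 time courses, by 4.26 on average (SD 0.90, range 3.23 to 5.40, n = 6 time courses; exact two-sided sign-flip permutation test, p = 0.0312, the smallest p that 6 time courses allow). By day 3 it had risen in 4 of 6, by 6.34 and 4.79 in Neural and 4.41 and 2.13 in FA from 2iL and SL, whereas the changes in EB were -1.0 and -0.09 (p = 0.125, same exact test over all 6). From day 0 to day 7 the 3 time courses from 2iL rose by 6.50, 7.26 and 6.91, for which an exact test over 3 values cannot go below p = 0.25. Cdh2 had more reads than Cdh1 in 3 of 45 libraries, at days 3 and 5 of Neural from 2iL and at day 5 of Neural from SL. Divided by transcript length (4843 bases for Cdh2, 4430 for Cdh1), 2 libraries remained, both of Neural from 2iL. Cdh2 thus rose without overtaking Cdh1 in most libraries, with more Cdh1 than Cdh2 reads at day 7 in all 6 time courses, though in EB from 2iL both were nearly equal (141 and 140 CPM).

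**Figure D2:**
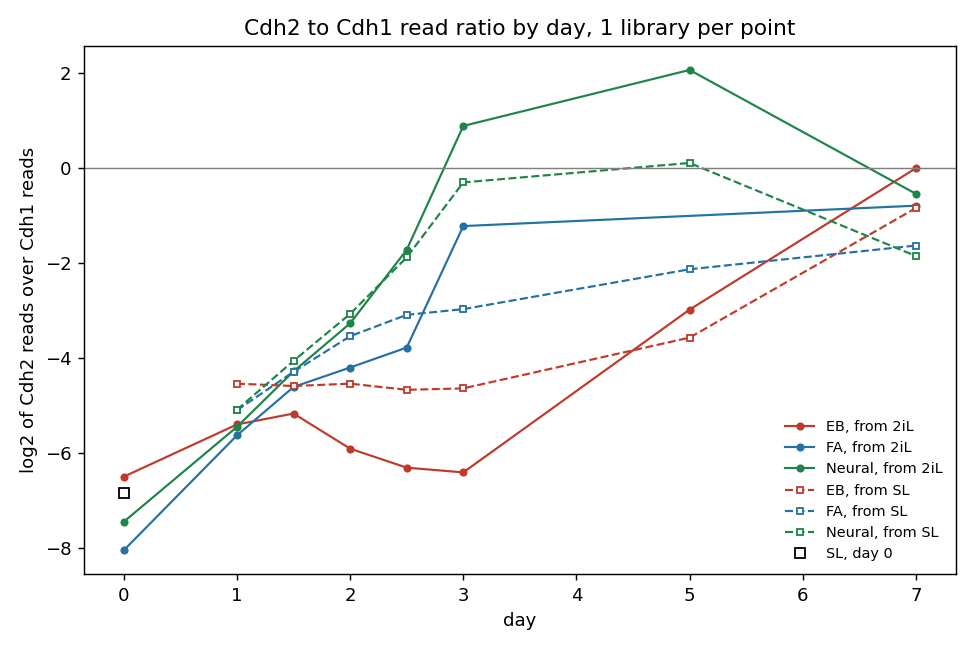
Log2 ratio of Cdh2 to Cdh1 reads against day, 1 library per point, coloured and dashed as in the plot of levels by day, with a grey line where both genes have the same number of reads. Neural reaches 2.07 at day 5 from 2iL and 0.11 from SL, while EB stays between -6.41 and -4.54 from day 1 to day 3.

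Cdh9, a cadherin known mainly from neurons, appeared transiently (chromosome 15, 16728756 to 16857094, positive strand). In the 3 day 0 libraries in 2iL it had 0, 1 and 0 reads. EB from 2iL gave 5.89, 17.0, 25.8, 22.3, 17.4, 4.77 and 0.240 CPM from day 1 to day 7, and EB from SL 8.07, 9.80, 15, 9.77, 6.80, 4.52 and 0.347 CPM. The peak was at day 2 in both. In FA from 2iL it reached 7.88 CPM at day 2.5 and in Neural from 2iL 6.28 CPM at day 2, and in FA and Neural from SL it peaked at 4.86 and 4.81 CPM. Over the 3 courses from 2iL, the pooled CPM at day 1 was 258 times that of day 0, with an exact 95% interval of 45.8 to 10215 that covers counting error only and is this wide because it rests on 1 read at day 0. Cdh9 was back under 1 CPM in all 6 libraries of day 7.

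Cdh11, the mesenchymal OB-cadherin (chromosome 8, 102632095 to 102785642, negative strand), was a late gene. It was at or below 3.16 CPM in every library up to day 3. At day 5 it was at 47.9 CPM in EB from 2iL, 18.0 in Neural from 2iL, 19.1 in EB, 11.2 in FA and 13.5 in Neural from SL. At day 7 it reached 130, 150 and 27.9 CPM in EB, FA and Neural from 2iL and 72.6, 33.5 and 15.3 CPM from SL. Neural was the lowest course at day 7 from both media.

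Zeb1 (chromosome 18, positive strand) was already expressed in ESCs and fell far in EB. It dipped less in FA, to 22.0 CPM from 2iL and 13.1 CPM from SL at day 2.5, and stayed at or above 23.9 CPM in Neural. In EB from 2iL it was at 46.9, 21.7, 8.88, 3.26, 1.80, 1.74, 3.74 and 37.5 CPM on days 0 to 7. EB from SL gave 15.3, 7.17, 2.59, 2.14, 1.69, 3.10 and 27 CPM from day 1. Both EB time courses thus fell to their lowest level at day 3 and returned by day 7. FA from 2iL was at 41.6, 49.8, 43.9, 34.7, 22.0, 34.2 and, at day 7, 40.6 CPM, and Neural from 2iL at 38.9, 44.0, 37.8, 27.1, 34.5, 40.2, 52.5 and 40 CPM. From SL, with 25.6 CPM at day 0, FA gave 29.3, 18.9, 14.8, 13.1, 14.9, 18.6 and 34.6 CPM, and Neural 34.7, 26.3, 23.9, 25.3, 36.9, 33.8 and 32.8 CPM. From day 1.5 to day 5, no EB library overlapped any FA or Neural library.

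Zeb2 (chromosome 2, 44983632 to 45117395, negative strand) was nearly silent in ESCs, at 1.16, 0.200 and 0.700 CPM in 2iL and 2.03 in SL. Neural from 2iL gave 3.21, 13.3, 28.3, 61.5, 141, 160 and 94.3 CPM from day 1, and Neural from SL 6.75, 12.4, 29.1, 52.2, 114, 95.9 and 66.8 CPM. In EB the level was 2.69, 6.19, 6.19, 7.34 and 7.51 CPM up to day 3 and then 57.8 and 107 CPM from 2iL, and 2.15, 2.5, 2.54, 2.77 and 3.77 CPM and then 51.2 and 86.6 CPM from SL. Most of the rise of Zeb2 in EB thus came after day 3, although EB from 2iL had already gone from 1.16 to 7.51 CPM by then. FA from 2iL rose through 3.76, 14, 19.0, 20.2 and 43.3 CPM to 84.5 CPM at day 7, and FA from SL through 6.36, 8.36, 12.9, 14.3, 19.7 and 36.7 to 72.2 CPM. At day 7 all 6 time courses lay between 66.8 and 107 CPM.

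Of the other 3 transcription factor genes, Snai1 and Snai2 were low throughout. Twist1 started low and rose by steps, from a mean of 0.929 CPM at day 0 in 2iL to 2.2 at day 1, 4.55 at day 3 and 14.3 at day 7. Snai1, which encodes Snail and is known for the exit of cells from the primitive streak (chromosome 2, 167538195 to 167542814, positive strand), was highest at day 7 of Neural from SL, at 7.29 CPM, and of EB from 2iL, at 6.31 CPM. FA ended at 1.16 CPM from 2iL and 1.21 CPM from SL, below both other courses. Snai2 (chromosome 16, 14705852 to 14709385, positive strand) was under 1 CPM in 38 of 45 libraries and reached 8.15 CPM at day 7 of EB from 2iL, where EB from SL had 0.843 CPM. Twist1, known for cranial and limb mesenchyme (chromosome 12, 33957671 to 33959829, positive strand), rose from 0.732 to 1.07 CPM at day 0 in 2iL to 19.0, 18.8 and 5.08 CPM at day 7 of EB, FA and Neural, and from 2.03 CPM in SL to 6.74, 14.4 and 5.45 CPM.

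Vim (chromosome 2, 13573927 to 13582826, positive strand) was abundant in ESCs and, like Zeb1, dipped in EB. It was at 228, 161, 108, 103, 69.9, 50, 133 and 303 CPM in EB from 2iL and at 137, 105, 56.0, 41.7, 30.8, 69.4 and 223 CPM from day 1 of EB from SL. Neural from 2iL held 210, 164, 150, 195, 163 and 172 CPM up to day 3 before 533 and 577 CPM, and FA from 2iL held 247, 176, 174, 223, 158 and 172 CPM before 687 CPM. From SL, with 92.7 CPM at day 0, FA gave 169, 200, 140, 95.2, 95.5, 517 and 664 CPM, and Neural 148, 202, 161, 124, 160, 334 and 370 CPM. All 6 time courses were higher at day 7 than at any day up to 3.

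Levels were also divided by the length of 1 transcript per gene. Reads were counted per gene, whose exons together can be longer, at 4743 against 2193 bases for Vim and 4574 against 4430 for Cdh1. For Cdh2 these lengths are 8066 and 4843 bases, and for Zeb2 19942 and 9124. The order of genes and the overlap of ranges below therefore hold for this length only. Per kilobase of that transcript, the 3 day 0 libraries in 2iL had a median of 104 CPM per kb for Vim (95.8 to 113). Cdh1 had 97.6 (85.8 to 103), and the 2 ranges overlap. Zeb1 followed at 7.17 CPM per kb (6.71 to 8.08), and the other 7 genes were each at or below 1.03 in every library. At day 7 the medians of the 6 libraries were 216 for Vim (102 to 313), 54.6 for Cdh1 (31.7 to 60.9) and 26.3 for Cdh2 (14.5 to 28.9), and these 3 ranges did not overlap. Cdh11 with 9.40 (2.71 to 26.6), Zeb2 with 9.38 (7.32 to 11.7), Twist1 with 6.49 (3.12 to 11.7) and Zeb1 with 6.21 (4.65 to 7.0) came next, where the ranges overlapped except those of Zeb2 and Zeb1. Snai1 at 2.35, Snai2 at 0.612 and Cdh9 at 0.122 CPM per kb were the lowest.

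Days were compared with the 3 courses as replicates in an edgeR quasi-likelihood model with course as a block, and fold changes are on the log2 scale with SE and adjusted p over all genes tested. The courses are different cultures, so the differences between them enter the spread behind every such value. At day 1 against day 0 in 2iL, 2 of 10 genes rose, Cdh9 (7.62 ± 1.29, adjusted p = 0.00041) and Twist1 (1.2 ± 0.38, adjusted p = 0.025), and none fell, where 14.6% of 16306 genes rose and 14% fell. Without FA the call on Twist1 was lost (adjusted p = 0.19), which left 1 gene called. Without EB it was lost too (adjusted p = 0.15), while Cdh2, Zeb2 and Vim joined Cdh9 for 4 calls.

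At day 3 against day 0 in 2iL, 4 of 10 rose, with 27.2% of all genes rising. These were Cdh9 (8.43 ± 1.26, adjusted p = 4.5e-05), Zeb2 (5.77 ± 0.86, adjusted p = 4.4e-05), Cdh2 (3.90 ± 0.80, adjusted p = 0.00074) and Twist1 (2.23 ± 0.38, adjusted p = 0.00014). Vim fell by 1.04 (SE 0.33, adjusted p = 0.016), with 24.1% of all genes falling, and this was not called without the block (adjusted p = 0.22). Cdh1 was at -1.23 ± 0.51, which did not pass (adjusted p = 0.053). Without FA the calls on Cdh2 and Vim were lost (adjusted p = 0.053 and 0.065), which left 3 genes called.

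By day 7 in 2iL, 8 of 10 genes had risen against day 0, with 33.8% of all genes rising. The largest rises were those of Zeb2 (6.93 ± 0.87, adjusted p = 4.9e-06), Cdh11 (6.92 ± 0.68, adjusted p = 3.8e-07) and Cdh2 (5.30 ± 0.82, adjusted p = 3.8e-05). Twist1 rose by 3.80, Snai2 by 3.01, Snai1 by 2.51 and Vim by 0.98. Cdh9, though past its peak, was still called higher at 4.98 ± 1.55 against its near-absence at day 0. Cdh1 fell by 1.2 (SE 0.50, adjusted p = 0.044), with 29.9% of all genes falling, and Zeb1 was at -0.28 ± 0.77. The calls on Cdh1, Cdh9 and Vim were lost without the block (adjusted p = 0.12, 0.083 and 0.068). That on Cdh1 was also lost with library totals alone (adjusted p = 0.06), without FA (0.16) and without Neural (0.058). Vim was lost without FA or Neural too (adjusted p = 0.21 and 0.091), and without FA so were Snai2 and Cdh9, which left 5 genes called.

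From SL, day 7 was set against day 1, the first replicated day, in a model of 41 libraries. Cdh11 (5.74 ± 0.66, adjusted p = 4.0e-08), Zeb2 (4.27 ± 0.78, adjusted p = 3.9e-05), Cdh2 (3.21 ± 0.63, adjusted p = 8.9e-05), Twist1 (1.5 ± 0.34, adjusted p = 0.0005) and Vim (1.22 ± 0.36, adjusted p = 0.0053) rose, 5 of 10, with 30.4% of all genes rising. Cdh9 fell by 3.5 (SE 0.72, adjusted p = 0.00016), with 29.3% of all genes falling. The call on Vim was lost without the block (adjusted p = 0.066) and, with that on Twist1, without FA (adjusted p = 0.17 and 0.065). From 2iL, the same days gave 7 genes that rose, with 34.7% of all genes rising, namely those 5 with Snai1 (2.99 ± 0.62) and Snai2 (2.62 ± 0.75). Snai2 rested on EB, since without that course it was at 1.03 with an adjusted p of 0.16. Cdh9 fell by 2.66 there, with 32.1% of all genes falling. The difference between media in this change was called for none of the 10 genes, with 3.22% of all genes called in either direction. The intervals were wide, at -1.67 to 0.86 for Cdh1, -0.77 to 2.64 for Cdh2 and -1.37 to 2.80 for Zeb2. Before adjustment, the p of Snai1 and of Twist1 was under 0.05 in this edgeR fit, and DESeq2 called none either.

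At days 2.5 and 3, EB stood apart from both other courses. This comparison was added after the values had been seen, uses the 2 media as replicates with medium as a block, and is fitted to the 41 libraries from day 1 on. Against Neural, EB had more Cdh1 (2.06 ± 0.22, adjusted p = 2.6e-07) and Cdh9 (2.77 ± 0.41, adjusted p = 1.8e-05), 2 of 10 genes, with 17.7% of all genes higher. It had less Zeb1 (-4.34 ± 0.20, adjusted p = 1.5e-12), Zeb2 (-4.14 ± 0.28, adjusted p = 3.7e-10), Cdh2 (-2.65 ± 0.35, adjusted p = 3.4e-06), Snai2 (-2.30 ± 0.60, adjusted p = 0.0046) and Vim (-1.85 ± 0.18, adjusted p = 7.5e-08), 5 of 10, with 18.9% of all genes lower. The 4 EB libraries of these days had 412 to 576 CPM of Cdh1 and the 4 Neural libraries 61.6 to 152, without overlap, and for Cdh2 they had 6.77 to 18.3 against 39.5 to 114 CPM. Snai2 was low in both, at 0.0496 to 0.29 CPM in EB, down to 1 read, and 0.505 to 0.679 CPM in Neural. With 1 medium alone and its 2 days as replicates, all 7 calls were kept without 2iL. Without SL, those on Cdh9 and Snai2 were lost.

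Against FA, EB had more Cdh1 (0.99 ± 0.22, adjusted p = 0.0016) and Cdh9 (1.73 ± 0.39, adjusted p = 0.0019), with 12.8% of all genes higher. It had less Zeb1 (-3.51 ± 0.20, adjusted p = 1.1e-10), Zeb2 (-2.16 ± 0.27, adjusted p = 3.8e-06), Cdh2 (-1.70 ± 0.34, adjusted p = 0.00078), Snai2 (-1.91 ± 0.61, adjusted p = 0.023) and Vim (-1.49 ± 0.18, adjusted p = 3.0e-06), with 13.8% of all genes lower. Both comparisons share the EB libraries. FA against Neural had more Cdh1 (1.07 ± 0.22, adjusted p = 0.0022), with 6.6% of all genes higher, and less Zeb2 (-1.98 ± 0.25, adjusted p = 2.0e-05) and Zeb1 (-0.84 ± 0.17, adjusted p = 0.0018), with 5.74% lower, while Cdh2 did not pass (-0.95 ± 0.33, adjusted p = 0.059). The call on Zeb1 between FA and Neural was lost without the block (adjusted p = 0.10). With 1 medium alone and its 2 days as replicates, EB against FA kept 1 call without 2iL, that on Zeb2, and 2 without SL, those on Zeb1 and Vim, and FA against Neural kept 0 in both.

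**Figure D3:**
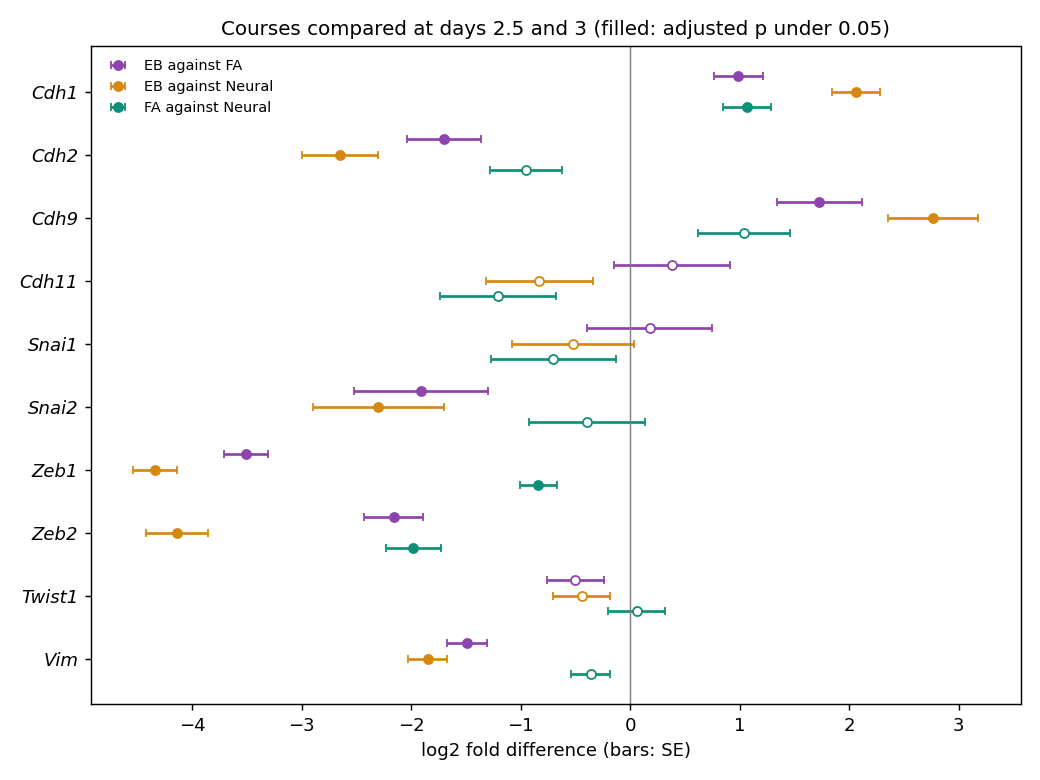
Log2 fold difference between courses at days 2.5 and 3 for each gene, with SE as bars and filled symbols where the adjusted p is under 0.05. EB lies far below both other courses for Zeb1, at -3.51 and -4.34, and above them for Cdh1 and Cdh9.

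At these days a list of 18 epithelial genes moved as Cdh1 did, in that 13 were higher in EB than in Neural, where 17.7% of all genes were higher, and 0 were lower, against 18.9% (list median 1.96, all genes -0.01). The largest were Rab25 (4.99), Mal2 (3.86) and Crb3 (3.62), which encode a trafficking GTPase, a membrane protein and a polarity protein of epithelia. Against FA, 13 were again higher and 0 lower, with 12.8% and 13.8% of all genes (list median 1.36, all genes 0.00). Of 17 tested mesenchymal genes, 9 were lower in EB than in Neural and 1 was higher (median -0.97; the same 18.9% and 17.7% of all genes), with the matrix protein gene Tgfbi at -3.73 and the transcription factor gene Foxc1 at -3.05, whereas Snai3 was higher at 2.20. Neural markers moved with the Neural course, since their summed level was 161 to 387 CPM in Neural, 139 to 219 in FA and 79.4 to 114 in EB. The sum of the 6 pluripotency markers moved the other way, at 646 to 755 CPM in EB, 483 to 659 in FA and 158 to 363 in Neural. Of these 6, Pou5f1 (1.61), Esrrb (1.21) and Nanog (0.74) were higher in EB than in Neural, and 0 were lower (list median 0.57). Against FA, 0 of them were called (list median 0.28). Of the 6 extraembryonic endoderm markers, Afp (3.25) and Ttr (2.26) were higher in EB than in FA and 0 were lower (list median 0.24). Against Neural, Afp (2.57) was higher and Sox17 (-1.55) lower in EB (list median -0.32). This list summed to 87.7 to 694 CPM in EB, 93 to 210 in FA and 76.2 to 495 in Neural. Of the 6 primitive streak and mesoderm markers, Mesp1 (-4.52) and Hand1 (-2.53) were lower in EB than in FA and 0 were higher (list median -0.97). Against Neural, Mesp1 (-4.4) and Hand1 (-3.75) were lower in EB, and 2 were higher, with Mixl1 at 1.94 (list median 0.20). The list summed to 15.5 to 58.4, 27.3 to 45.8 and 9.9 to 17.3 CPM in EB, FA and Neural. Of all genes, 12.8% were higher and 13.8% lower in EB than in FA, and 17.7% and 18.9% than in Neural. The part of these markers in the differences between courses was not tested.

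By days 5 and 7, each course had gained Cdh2 and Cdh11 against its own days 1 to 2. In EB, 7 of 10 genes rose, with 35% of all genes rising, led by Cdh11 (6.13 ± 0.39, adjusted p = 1.3e-11), Zeb2 (4.28 ± 0.24, adjusted p = 3.3e-12) and Cdh2 (2.81 ± 0.30, adjusted p = 2.7e-08). Snai1 (2.47 ± 0.48), Twist1 (1.45 ± 0.23), Vim (0.49 ± 0.16) and Zeb1 (0.38 ± 0.16) also passed, the last 2 not without the block (adjusted p = 0.065 and 0.22). Cdh9 fell by 3.51 (SE 0.42), with 32.6% of all genes falling. The mean of the 2 days hides a turn in EB, where Zeb1 was at -1.25 ± 0.22 for day 5 alone (adjusted p = 5.8e-05) and at 2.01 ± 0.18 for day 7 alone (adjusted p = 2.1e-09). Vim likewise went from -0.23 to 1.21. Snai2 went from -1.75 to 2.77, but its level in EB was as low as 0.109 CPM at these days. At day 7 it was at 8.15 CPM in EB from 2iL and at 0.843 CPM in EB from SL. Cdh1 in EB was at -0.38 ± 0.20 over both days, but at 0.35 for day 5 and -1.12 ± 0.27 for day 7 (adjusted p = 0.00085).

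In FA, 5 of 10 genes rose, with 30.4% of all genes rising, namely Cdh11 (6.02 ± 0.44), Cdh2 (2.82 ± 0.33), Zeb2 (2.58 ± 0.25), Twist1 (1.97 ± 0.26) and Vim (1.81 ± 0.18), and Cdh9 fell by 2.24, with 26.8% of all genes falling. Snai1 was at 0.20 ± 0.60 in FA. In Neural, 6 of 10 rose, with 36.9% of all genes rising, which adds Snai1 (1.81 ± 0.49) to the same names, with Cdh11 at 4.71 ± 0.40, Cdh2 at 3.47 ± 0.31 and Zeb2 at 2.92 ± 0.23. Cdh9 fell by 4.14 and Cdh1 by 0.76 (SE 0.20, adjusted p = 0.0019), with 34% of all genes falling. For day 7 alone the fall of Cdh1 in Neural was not called (-0.23, adjusted p = 0.43), as its level had partly returned.

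**Figure D4:**
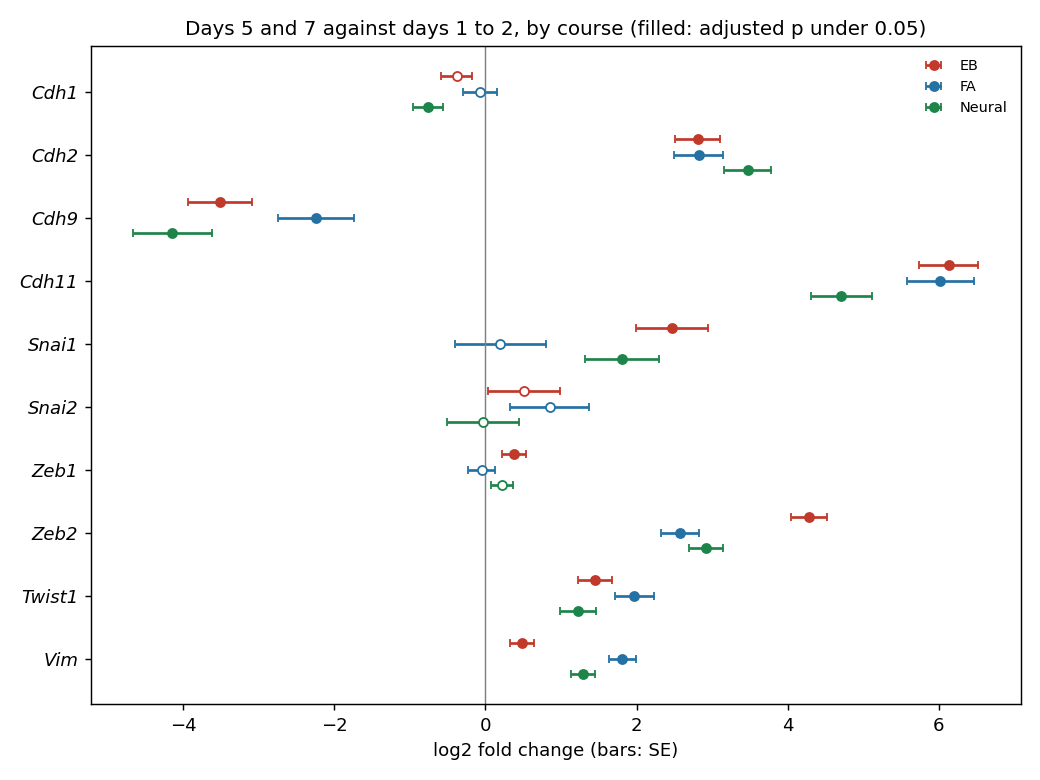
Log2 fold change of days 5 and 7 against days 1 to 2 for each gene in EB (red), FA (blue) and Neural (green), with SE as bars and filled symbols where the adjusted p is under 0.05. Cdh2, Cdh11, Zeb2, Twist1 and Vim lie to the right of 0 and Cdh9 to the left in all 3 courses, while Cdh1 lies at -0.38, -0.07 and -0.76.

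The change from early to late days was compared between courses by an interaction term. Zeb2 rose more in EB than in FA (difference 1.70 ± 0.36, adjusted p = 0.0049) and than in Neural (1.36 ± 0.33, adjusted p = 0.0044). It did so from a lower start, at mean levels of 3.71, 10.7 and 15.5 CPM in EB, FA and Neural at days 1 to 2. The means at days 5 and 7 were 75.5, 64.5 and 104 CPM. Vim rose less in EB than in FA (-1.32 ± 0.24, adjusted p = 0.0014) and than in Neural (-0.81 ± 0.23, adjusted p = 0.012). These 2 genes were the ones called, with 9.03% of all genes called in either direction between EB and FA and 26.6% between EB and Neural, and the 2 differences share the EB libraries. Both calls against Neural were lost without the block (adjusted p = 0.051 and 0.092), and Vim against FA as well (adjusted p = 0.056), and with 1 medium alone 0 were called. Between FA and Neural edgeR called 0 of 10, of which Cdh1, Cdh9 and Vim were under 0.05 before adjustment, and DESeq2 called 1, with 15.2% of all genes called by edgeR. For Cdh2 the interval of the difference between EB and FA was -0.96 to 0.93.

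Set side by side at days 5 and 7, EB against Neural had more Cdh1 (1.06 ± 0.22, adjusted p = 0.00041), Cdh9 (2.15 ± 0.62, adjusted p = 0.0074) and Cdh11 (1.53 ± 0.36, adjusted p = 0.0014), with 22.7% of all genes higher. It had less Zeb1 (-2.01 ± 0.17, adjusted p = 1.3e-08), Vim (-1.57 ± 0.18, adjusted p = 5.2e-07) and Cdh2 (-0.80 ± 0.32, adjusted p = 0.046), with 21.6% lower, the last not without the block (adjusted p = 0.089), with library totals alone (0.073) or with no filter on low counts (0.052). At day 7 alone Cdh1, Cdh9 and Cdh2 were at -0.20, -0.54 and 0.45, and Zeb1 was no longer called (-0.25, adjusted p = 0.44), which left Cdh11 and Vim of these 6. With 1 medium alone, 1 call was left without 2iL and 2 without SL. Against FA, EB had more Snai1 (2.17 ± 0.65, adjusted p = 0.021), with 8.92% higher, and less Vim (-2.04 ± 0.20, adjusted p = 2.9e-07) and Zeb1 (-1.53 ± 0.19, adjusted p = 6.4e-06), with 11.2% lower. At day 7 alone 1 of these 3 was called, since Zeb1 was at -0.25 (adjusted p = 0.55) and Snai1 at 2.20 (adjusted p = 0.069). The call on Snai1 was also lost without the block (1.74, adjusted p = 0.19). FA against Neural had more Cdh1 (1.0 ± 0.24), Cdh9 (1.93 ± 0.67) and Twist1 (0.97 ± 0.28), with 17.6% higher, and less Snai1 (-1.94 ± 0.65) and Zeb2 (-0.82 ± 0.28), with 14.6% lower, of which Cdh1 and Zeb2 were at 0.20 and -0.08 at day 7 alone. With 1 medium alone, EB against FA kept the call on Vim. FA against Neural kept that on Snai1 without 2iL and none of the 5 without SL, where Cdh11 was called instead. Without the block, FA against Neural lost Snai1 and Zeb2 (adjusted p = 0.14 and 0.07).

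Markers of other cell types were detected at these late days. Markers of primitive streak and mesoderm summed to 164 to 726 CPM in EB at days 5 and 7, against 22.6 to 81.9 in FA and 5.51 to 13.6 in Neural, and all 6 genes were detected in EB. In EB, T, the Brachyury gene, was at 44.7 to 370 CPM, against 4.11 to 9.59 CPM in FA and 0.287 to 0.750 CPM in Neural. Markers of extraembryonic endoderm summed to 353 to 965 CPM in Neural, 66.1 to 159 in FA and 66.5 to 1120 in EB. At day 0 they summed to 2.01 to 4.61 CPM in 2iL and 150 CPM in SL. Against days 1 to 2, 6, 0 and 4 of these 6 rose in Neural, FA and EB, and 0, 1 and 0 fell. Of all genes, 36.9%, 30.4% and 35% rose and 34%, 26.8% and 32.6% fell. Neural markers summed to 390 to 664, 175 to 423 and 97.7 to 263 CPM in Neural, FA and EB. The part of these markers in the late values of the 10 genes was not tested.

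Late cultures gained epithelial and mesenchymal genes side by side. Of 18 epithelial genes, 11 rose and 2 fell in EB, 12 rose and 3 fell in FA, and 11 rose and 5 fell in Neural, with medians of 1.14, 1.92 and 1.47 against 0.03, 0.03 and 0.02 for all genes. Of all genes, 35%, 30.4% and 36.9% rose and 32.6%, 26.8% and 34% fell in EB, FA and Neural, and these shares also stand behind the counts of the next lists. The keratin genes led in every course, Krt19 at 4.38, 5.33 and 6.29, Krt8 at 4.06, 4.60 and 5.06, and Krt18 at 3.67, 4.58 and 5.13 in EB, FA and Neural. Of 17 tested mesenchymal genes, 13, 15 and 14 rose and 0, 0 and 1 fell, with medians of 2.23, 2.14 and 2.20. The smooth-muscle actin gene Acta2 rose by 6.17, 10.06 and 9.65, Tagln by 6.39, 8.28 and 6.69, and the matrix gene Postn by 6.17, 8.11 and 6.49.

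Of 13 other classical cadherins tested from a list of 14, 9 rose in EB and in FA and 7 in Neural, and 1, 0 and 1 fell, against the 35%, 30.4% and 36.9% of all genes that rose. Cdh6, a cadherin of kidney and neural crest, rose by 3.30, 4.57 and 5.56, Cdh20 by 3.55, 2.46 and 3.95, and Cdh22 by 5.10 and 2.71 in EB and FA. The endothelial cadherin gene Cdh5 rose by 5.11 in Neural, but a list of endothelial markers that includes it did not rise as a whole. That list summed to 28.4 to 125 CPM at days 1 to 2 of Neural and 15 to 36 CPM at days 5 and 7. Of its 5 tested genes, 1 rose (Cdh5) and 1 fell (Pecam1, -3.79), with a median of -0.15, where 36.9% of all genes rose and 34% fell. At days 2.5 and 3, P-cadherin (Cdh3) was higher in EB than in Neural by 3.07 ± 0.33 (adjusted p = 1.9e-07), the same direction as Cdh1. It was the only 1 of the 13 called higher there, while 5 were lower, with Cdh22 at -2.88 and Cdh5 at -2.47 (list median -0.30). Of all genes, 17.7% were higher and 18.9% lower in that comparison. Of 6 tested catenin genes, 4, 5 and 3 rose and none fell, the 3 in Neural being near the 36.9% of all genes, with the neuronal forms Ctnna2 (3.76, 3.07 and 4.41) and Ctnnd2 (2.88, 3.22 and 3.40) well above the others.

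The starting media were compared at day 0, days 1 to 2 and days 5 and 7. At day 0, 2iL had more Vim (1.36 ± 0.17, adjusted p = 0.00069), Zeb1 (0.79 ± 0.18, adjusted p = 0.0094) and Cdh1 (0.61 ± 0.18, adjusted p = 0.031) than SL, 3 of 9 tested, with 13.5% of all genes higher, and none was lower, with 17.3% of all genes lower. Cdh9 did not pass the filter on low counts here, and its levels were 0, 0.0665 and 0 CPM in 2iL and 0.384 CPM in SL. The test rests on 1 SL library, with a spread that comes from 2iL, and with the spread of all 45 libraries 1 gene was called, Cdh9 at -4.62 (adjusted p = 0.048), and these 3 were not (adjusted p = 0.44 for Cdh1, 0.39 for Zeb1 and 0.051 for Vim). Scaled by library totals alone, Cdh1 did not pass either (adjusted p = 0.084), nor without the library of EB (0.059) or of FA (0.052). Of the epithelial genes, 10 of 16 tested were lower in 2iL than in SL and 1 was higher, with Esrp1 at -5.22, Krt8 at -4.14 and Krt19 at -4.04. Extraembryonic endoderm markers summed to 150 CPM in SL, against 2.01 to 4.61 in 2iL, and their part in this was not tested. At days 1 to 2, Snai1 was lower after 2iL (-1.71 ± 0.36, adjusted p = 0.00052), 1 of 10 genes, with 17.6% of all genes lower and 17.9% higher. Without Neural this call was lost (-1.28, adjusted p = 0.059), and without EB 3 genes were called. At days 5 and 7 none of the 10 was called by edgeR or DESeq2, with 0.468% of all genes higher and 0.553% lower, and 2 genes, Cdh11 (1.21 ± 0.37) and Twist1 (0.70 ± 0.25), had a p under 0.05 before adjustment in this edgeR fit.

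The genes whose levels followed these cadherins most closely over the 45 libraries were found by Spearman's rho among 12558 genes, as a description, since libraries of a time course are not independent. For Cdh1 they were Slc25a3 (0.873), Zfp7 (0.865) and 2010111I01Rik (0.850). For Cdh2 they were Uhrf2 (0.945), Plekho1 (0.944) and Dchs1 (0.936), the last itself an atypical cadherin.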

How the data were processed

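Total RNA depleted of ribosomal RNA was sequenced from 45 samples of E14tg2a ESCs and their differentiation courses. The authors trimmed adaptors with TrimGalore, mapped reads to GRCm38 with TopHat2 and obtained strand-specific gene counts from featureCounts. The deposited files hold these counts raw, without normalization by the authors. The authors also used DESeq2, whose values are not part of these counts. Versions of the aligner and counter are not given in the sources used here. Levels are CPM, the counts scaled to the library total. The 10 genes and all gene lists were chosen with earlier results of these data known.

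Fits were made with R 4.3.3, edgeR 4.0.16 (TMM, filterByExpr, quasi-likelihood test, Benjamini-Hochberg adjustment over all genes, threshold 0.05) and, as an alternative, DESeq2 1.42.0, and the rest with Python 3.11.15. The scripts were tested on simulated data. Days and media were compared with the 3 courses as replicates and course as a block. Courses were compared with the 2 starting media as replicates and medium as a block. No label says that libraries came from separate cultures, so p-values measure the spread between these libraries. The pairing of libraries by course comes from the labels. Around the mean of the 3 courses, libraries of the same course and medium deviated together (mean correlation 0.417, lowest 0.0773, over 108 pairs). Taking deviations around that mean forces a negative mean correlation between other courses (-0.201), which is therefore no evidence for the pairing. The courses are different treatments, so neither value shows that they can serve as replicates. Of 183 pairs of libraries with the same medium and the same day or course, none agreed within sampling noise (lowest chi-square per gene 8.52). Pairs across media were not checked. The SL library of day 0 belongs to no course and took no part in the block. Named genes are the 10 members, the 3 called genes with the largest fold change of each list, and the 3 most like Cdh1 and Cdh2 among genes with at least 5 CPM in at least 3 libraries. Brachyury was named beyond this rule as a marker.

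Alternatives were the Wald test of DESeq2 with its own scaling, library totals without TMM, no filter, no block, each course or medium left out, day 7 alone and, at day 0, the spread of all 45 libraries. Days 2.5 and 3 between courses, and day 5 or day 7 alone within a course, were added after seeing the values. Positions, transcript lengths and 3′ UTRs are from GENCODE M21 (GRCm38), and microRNA sequences from RefSeq (GRCm38.p6).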

Additional observations from a re-analysis of the deposited data

Results flagged for a closer look

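The change from days 1 to 2 to days 5 and 7 differed between courses for Zeb2 and Vim by the test of the difference itself, in edgeR with adjusted p over all genes. For Zeb2 the rise in EB exceeded that in FA by 1.70 on the log2 scale (SE 0.36, adjusted p = 0.0049) and that in Neural by 1.36 (SE 0.33, adjusted p = 0.0044). The rise of Zeb2 in EB started from a lower level, with means of 3.71, 10.7 and 15.5 CPM at days 1 to 2 in EB, FA and Neural. At days 5 and 7 these means were 75.5, 64.5 and 104 CPM. For Vim the difference was -1.32 between EB and FA (SE 0.24, adjusted p = 0.0014) and -0.81 between EB and Neural (SE 0.23, adjusted p = 0.012). The EB libraries are shared by these tests. Of all genes, 9.03% were called in either direction between EB and FA and 26.6% between EB and Neural. Without the block, both calls against Neural and that on Vim against FA were lost. With 1 medium alone, 0 were called. Markers of primitive streak and mesoderm summed to 164 to 726 CPM in EB at days 5 and 7, and to 15.2 to 40.7 CPM at days 1 to 2, and their part in these differences was not tested.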

How the results depend on the processing

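Over 21 comparisons, 91 of 209 values of the 10 genes were called, and 43 of them were called under every alternative. Of 1433 alternative values, 103 lost a call, 23 gained 1 and 6 turned direction. Those 6 were single days. With day 7 alone, EB against Neural gave -0.20 for Cdh1, 0.45 for Cdh2 and -0.54 for Cdh9, and with day 5 alone EB against its days 1 to 2 gave -1.75 for Snai2, -1.25 for Zeb1 and -0.23 for Vim. With 5 in place of 0.5 added to both counts, the rise of the cadherin ratio was 4.22 in place of 4.26. The causes were not tested. Genes under about 1 CPM, such as Snai2 in 38 libraries, carry large counting errors.

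Without the replicate block, the comparisons whose counts moved by over 1.5 times were FA against Neural at days 5 and 7 (3 of the 10 genes in place of 5), and the differences in the late change of EB against FA (1 in place of 2) and against Neural (0 in place of 2). Over all genes the counts without the block were 64 in place of 168 for 2iL against SL at days 5 and 7, 3053 for 4663 at day 1 against day 0, 2053 for 3404 in EB against FA at days 5 and 7, 1199 for 2090 in FA against Neural at days 2.5 and 3, 756 for 1531 and 1454 for 2582 in the differences of EB and of Neural from FA, and 145 for 531 in the difference between media. DESeq2 called 483 and 837 genes in place of 168 and 531 in the comparisons of media, and 1 of the 10, Cdh9, in place of 0 for the difference between FA and Neural. The spread of all 45 libraries gave 1 call in place of 3 at day 0. Day 7 alone gave 1 in place of 3 in EB against FA and 3 in place of 5 in FA against Neural, with 1776 in place of 3404 and, for EB against Neural, 4962 in place of 7506 genes in all. Day 5 alone gave 5462 in place of 9692 in FA.

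Leaving out 1 course at a time gave 1 to 4 of the 10 genes at day 1 against day 0 (1884 to 4421 in all), 3 to 6 at day 3 (5208 to 8514 in place of 8377) and 5 to 9 at day 7. Between media it gave 0 to 3 at days 1 to 2 (2997 to 5219 in place of 5840), 0 to 1 at days 5 and 7 (33 to 304), and 58 to 459 in all for the difference between media. Leaving out 1 medium leaves the days as the only replicates. It gave 1 to 2 calls for EB against FA at days 2.5 and 3 (938 to 1007 in place of 4506), 1 at days 5 and 7 (406 to 966), 1 to 2 for EB against Neural at days 5 and 7 (2356 to 3542), 0 and 1 for FA against Neural (66 to 141 and 354 to 2260 in place of 5456), and 0 for the differences of EB (89 to 109 and, against Neural, 757 to 1183 in place of 4515), with 4 to 535 in all for FA and Neural. EB against Neural at days 2.5 and 3 had 1666 to 2247 in place of 6197 genes in all, EB late against early 7217 to 8642 in place of 11452, and FA 5490 to 7189.

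Scaling by library totals moved the median of all genes by up to 0.117 on the log2 scale, from -0.00866 to 0.108 in EB against Neural at days 2.5 and 3, and turned no called gene of the 10. It moved the split of genes higher and lower from 2996 and 3201 to 4227 and 2326 in EB against Neural at days 2.5 and 3, and from 1118 and 972 to 1574 and 710 in FA against Neural.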
